A study of Mus musculus with 7 samples.

Results

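The contractile genes of smooth muscle and of peritubular myoid cells were examined across 7 Affymetrix arrays of mouse RNA, from whole testis, primary Sertoli cells and the TM4 cell line. The 10 genes were the actins Acta2 and Actg2, the myosin heavy chain Myh11, the actin-binding proteins Tagln and Cnn1, the intermediate filament gene Des, the tropomyosins Tpm1 and Tpm2, the myosin light chain Myl9 and its kinase Mylk. They were chosen by symbol and by no cut on measured values, though with earlier results of these data known. Probe sets annotated to exactly 1 of these genes were used, and the members are 10 of the 18336 genes named on the arrays. The 12488-probe-set design used for testis held 11 such probe sets, and the 45101-probe-set design used for Sertoli and TM4 cells held 22. The testis arrays came from wild-type and ERM knockout mice at 4 weeks. The Sertoli arrays came from wild-type and ERM knockout mice at 4 weeks and from ERM knockout mice at 10 weeks, with no wild type at 10 weeks. TM4, an established mouse line of Sertoli origin, was measured without and with transfection of ERM, the ETS transcription factor encoded by Etv5. The sources used here give no strain, allele, pooling of animals, culture time of the primary cells or kind of transfection. Each group was 1 array, so no difference had a replicate check, no test across samples was possible, and precision is limited by that number.

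Peritubular myoid cells are flat, smooth-muscle-like cells that wrap the seminiferous tubule, share the basement membrane with Sertoli cells, and contract to move sperm and fluid towards the rete testis. Their force comes from smooth muscle actin sliding against smooth muscle myosin. Contraction is switched on when myosin light chain kinase phosphorylates the regulatory light chain, and tropomyosin and calponin bind along the actin filament. The genes of this apparatus are classic targets of serum response factor and its myocardin-family partners, which act through CArG boxes, and several of them are also made by cultured non-muscle cells that form stress fibres. In RNA from mixed cells, fewer cells of a type and less RNA per cell cannot be told apart.

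Intensities are given after each array was scaled to a common trimmed mean of 500, and a scaled intensity below 100 was treated as at the floor. Within the larger design, the deposited trimmed means were 183 and 186 for TM4 and 288 to 299 for Sertoli cells, and on the testis design they were 468 and 477. None of the 3 Etv5 probe sets was lower on an array labelled knockout than on the wild-type Sertoli array (1428142_at: 710 in wild type, 910 in knockout at 4 weeks, 995 in knockout at 10 weeks). The labels do not say which part of Etv5 was deleted, so the values do not check the labels, and arrays are called knockout by their label throughout. The Sertoli array labelled knockout at 4 weeks stood apart in its 18S ribosomal RNA control, which read 4551 on the 5' probe set against 236 to 352 on the other 4 arrays of the design. Gapdh 3' to 5' ratios on those 5 arrays ran from 0.777 to 0.829. All 12 Sertoli cell markers were at or above the floor on the wild-type and 4-week knockout Sertoli arrays and 11 of 12 on the 10-week array, where Espn was below it. Of all probe sets naming 1 gene, 76.8% to 78.6% were at or above it on these arrays. On each TM4 array 10 of 12 markers were too, so this count does little to tell the cells apart. In untransfected TM4, the representing probe sets of Sox9 (95.1) and Wt1 (97.4) were below the floor, although another Sox9 probe set read 2869 there and 2166 in wild-type Sertoli cells.

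Promoters are shown for the pair of members that bear on the gene most used as a myoid marker and on the one that differed at 4 weeks, Acta2 and Myl9, and for the tropomyosins Tpm1 and Tpm2, which moved together across the arrays described below. RefSeq sequences (build GRCm38.p6) from 250 bases before to 50 after the annotated start matched 7 of the 10 members. Actg2, Myh11 and Tagln were not matched. Capitals mark stretches that match the CArG box with at most 1 mismatch. The sequences are printed 5′ to 3′ on the strand of the gene.
Acta2, chr19:34255324-34255623, strand -: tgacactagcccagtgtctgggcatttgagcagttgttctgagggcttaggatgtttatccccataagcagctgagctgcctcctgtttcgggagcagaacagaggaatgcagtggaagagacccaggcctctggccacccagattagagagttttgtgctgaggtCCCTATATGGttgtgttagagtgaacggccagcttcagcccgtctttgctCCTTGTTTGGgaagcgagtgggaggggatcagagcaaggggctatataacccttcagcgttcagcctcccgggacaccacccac
Myl9, chr2:156775214-156775513, strand +: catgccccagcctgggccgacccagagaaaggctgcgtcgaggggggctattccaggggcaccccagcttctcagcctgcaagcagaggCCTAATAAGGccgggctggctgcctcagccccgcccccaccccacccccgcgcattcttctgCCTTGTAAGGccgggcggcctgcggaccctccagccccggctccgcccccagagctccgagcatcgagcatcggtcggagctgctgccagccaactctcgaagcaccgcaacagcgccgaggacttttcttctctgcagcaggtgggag
Tpm1, chr9:67049164-67049463, strand -: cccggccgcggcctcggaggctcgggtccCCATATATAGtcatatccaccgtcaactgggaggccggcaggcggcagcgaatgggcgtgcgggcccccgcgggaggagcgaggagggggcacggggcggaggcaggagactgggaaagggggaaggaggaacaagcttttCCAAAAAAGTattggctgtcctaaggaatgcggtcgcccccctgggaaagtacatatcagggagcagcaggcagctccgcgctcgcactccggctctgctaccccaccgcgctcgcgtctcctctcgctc
Tpm2, chr4:43523505-43523804, strand -: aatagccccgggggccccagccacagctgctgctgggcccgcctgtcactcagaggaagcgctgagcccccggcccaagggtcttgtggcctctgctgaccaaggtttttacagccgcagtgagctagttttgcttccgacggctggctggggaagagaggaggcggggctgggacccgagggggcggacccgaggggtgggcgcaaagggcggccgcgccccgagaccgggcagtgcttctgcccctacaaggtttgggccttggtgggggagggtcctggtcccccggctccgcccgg
The CArG box reads the same on both strands. An exact match was present in the Myl9 window only among the 7, starting 161 bases before the start site, and in 1.63% of the 32851 promoters of the table. With at most 1 mismatch allowed, matches were found in Acta2 (84 and 34 bases before the start), Myl9 (also 99 bases before) and Tpm1 (221 and 80 bases before), that is in 3 of 7 members against 21.1% of all promoters. AGGAAG, the site named after the PEA3 group to which ERM belongs, occurred on either strand in 1 of 7 members, Tpm2, and in 35.4% of all promoters. These matches describe letters in a window and are no sign of binding.

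The smooth muscle actins were present on all 5 arrays of the larger design. Acta2, the alpha actin that marks myoid cells and myofibroblasts, read 5799 in wild-type Sertoli cells, 7409 in knockout at 4 weeks, 10026 in knockout at 10 weeks, 8095 in untransfected TM4 and 8939 in TM4 with ERM (1416454_s_at). Its highest array was the 10-week knockout and its lowest the wild type, 1.73-fold apart, and the Sertoli and TM4 arrays overlapped. That probe set carries a suffix for probes shared with other transcripts, and its signal may include related actins. The other Acta2 probe sets were near or below the floor. 1444105_at read 58.6, 59.9 and 228 on the 3 Sertoli arrays in the same order and 122 and 84.5 on TM4 without and with ERM. 1456658_at was below the floor throughout. Actg2, the gamma actin of visceral smooth muscle, read 387, 423 and 477 on the Sertoli arrays (wild type, knockout at 4 weeks, knockout at 10 weeks) and 734 and 1026 in TM4 without and with ERM. Both TM4 arrays were above all Sertoli arrays for Actg2, the nearest pair being 1.54-fold apart.

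Of myosin and its regulators, Mylk separated the Sertoli from the TM4 arrays, while Myh11 and Myl9 overlapped between them. Myh11, the heavy chain most restricted to smooth muscle, read 329, 347 and 431 on the Sertoli arrays and 249 and 353 in TM4 (1418122_at). Its other probe set, 1448962_at, read 100.3, 123 and 281 on the Sertoli arrays and 95.0 and 102 in TM4, so that the 10-week knockout was highest on both. Myl9, the regulatory light chain whose phosphorylation starts contraction, read 2087 in wild-type Sertoli cells, 4515 and 4111 in the knockout at 4 and 10 weeks, and 1687 and 2088 in TM4. Both knockout arrays stood above the other 3 for Myl9, and the wild-type Sertoli array lay between the TM4 arrays. Mylk, the kinase that phosphorylates this light chain, read 1763, 2149 and 2768 on the Sertoli arrays and 513 and 623 in TM4 (1425506_at). Every Sertoli array was above every TM4 array, by at least 2.83-fold. The other Mylk probe sets kept that order, with 644 to 734 against 386 and 419 for 1425504_at and 418 to 642 against 99.6 and 119 for 1425505_at.

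Among the proteins that bind along the actin filament, Tagln and both tropomyosins were higher in TM4 on the probe sets that represent them. Tagln (transgelin, or SM22), an early smooth muscle marker that binds actin, read 141, 75.7 and 135 on the Sertoli arrays and 2907 and 3195 in TM4. It was thus near or below the floor in primary cells, and the lower TM4 array was 20.6-fold above the highest Sertoli array. Tpm1, an actin-stabilising tropomyosin, read 1617, 1242 and 2934 on the Sertoli arrays and 5969 and 5800 in TM4 (1423721_at). Tpm2, its beta partner in smooth muscle, read 834, 556 and 1266 on the Sertoli arrays and 3188 and 3056 in TM4 (1419738_a_at). On these probe sets both tropomyosins had the same order of arrays. TM4 without and with ERM came first, only 1.03-fold apart for Tpm1 and 1.04-fold for Tpm2. The Sertoli knockout at 10 weeks, wild type and knockout at 4 weeks followed. Another probe set of each gave this order of Sertoli arrays as well, at 1378, 1040.3 and 2664 for 1423049_a_at of Tpm1 and 446, 300.4 and 674 for 1425028_a_at of Tpm2. The dimmer Tpm2 probe sets split on TM4 without and with ERM, at 695 and 915 for 1449577_x_at and 382 and 285 for 1419739_at. On the Sertoli arrays, only 1449577_x_at in the 10-week knockout (196) was at or above the floor. 1456623_at of Tpm1 moved less, at 432, 409 and 572 on the Sertoli arrays and 504 and 496 in TM4. Its highest array was thus the 10-week knockout, and it did not place TM4 above all Sertoli arrays. 1447713_at was below the floor throughout.

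Cnn1 and Des, markers of differentiated smooth muscle, were dim. Cnn1, encoding the basic calponin that restrains actomyosin, read 193, 146 and 177 on the Sertoli arrays and 94.9 and 122 in TM4. Des, the muscle intermediate filament, read 216, 292 and 329 on the Sertoli arrays and 307 on both TM4 arrays (1426731_at), while 1426732_at read 212, 233, 156, 151 and 136 in the same order and so did not share the rise in signal at 10 weeks. All 10 genes had a representing probe set at or above the floor on at least 1 of the 5 arrays, but only 13 of the 22 probe sets were at or above it on all of them and 2 were below it on all. On single arrays, 76.8% to 80.4% of all probe sets naming 1 gene were at or above it.

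**Figure D1:**
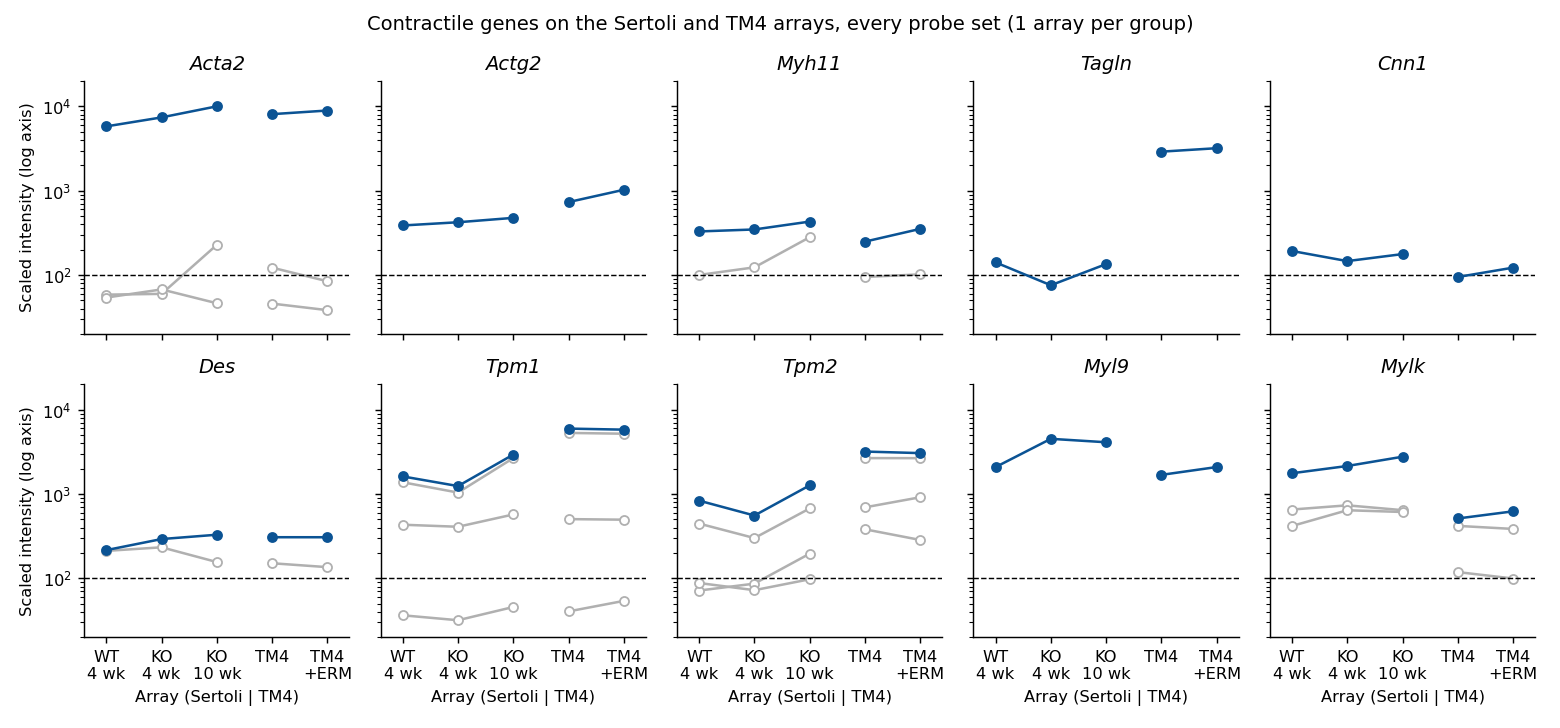
Scaled intensity on a log axis for each of the 10 contractile genes on the 3 Sertoli and 2 TM4 arrays; blue points are the probe set that represents the gene, grey points its other probe sets, and the dashed line is the floor of 100. Tagln goes from 75.7 to 141 in Sertoli cells to 2907 and 3195 in TM4, while Mylk is higher on the Sertoli arrays (1763 to 2768 against 513 and 623).

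The order of levels thus split the members. With 1 probe set per gene, 4 genes were higher on both TM4 arrays than on all Sertoli arrays (Actg2, Tagln, Tpm1 and Tpm2), 2 were higher on all Sertoli arrays (Cnn1 and Mylk) and 4 overlapped (Acta2, Myh11, Des and Myl9). The share of all genes separated in this way was not counted, so the division cannot be called particular to these genes. Quantile normalization gave the same division. On the values as deposited it changed, because the TM4 arrays are dimmer there, with 3 genes higher on both TM4 arrays (Tagln, Tpm1 and Tpm2), 6 higher on all Sertoli arrays and Actg2 overlapping. Tagln, Tpm1, Tpm2, Cnn1 and Mylk thus kept their place under these scalings and the other 5 did not. For Cnn1 the nearest pair was only 1.20-fold apart (146 against 122), with untransfected TM4 below the floor. Between wild-type Sertoli cells and untransfected TM4 alone, Mylk was 3.44-fold higher in Sertoli cells, and Tagln, Tpm1 and Tpm2 were 20.6-fold, 3.69-fold and 3.82-fold lower. These are 1 gene of 10 at least 2-fold higher and 3 lower by that much, where 17.8% and 16.1% of 16916 genes passed the same limits. The members had a median log2 ratio of -0.49 and all genes one of -0.08. The values as deposited move the median of all genes to 0.60, and on that scale Acta2 (0.22) and Des (0.20) go from lower to higher in Sertoli cells. Tagln, Tpm1, Tpm2 and Mylk stayed past 2-fold in the same direction under all 7 alternative settings. Those of floor and cross-hybridisation could not change Tpm1, Tpm2 or Mylk. On 1456623_at of Tpm1 the log2 ratio of wild-type Sertoli cells to untransfected TM4 was only -0.22. Cell type, culture and genetic background cannot be told apart in this pair. On the same arrays the 8 fibroblast markers summed to 11344 in Sertoli cells and 25284 in TM4, with Postn and Thy1 below the floor on both. The list was split, since Col1a1, Col1a2 and Col3a1 were higher in TM4, while Dcn and Pdgfra were 7.28-fold and 3.61-fold higher in Sertoli cells. Another Dcn probe set went the other way, with a log2 ratio of -0.29, and those of Pdgfra were at 1.31 and 1.71. The 8 pericyte markers summed to 1341 in Sertoli cells and 4839 in TM4. They were split as well, with Cspg4, Abcc9, Rgs4 and Mcam at least 2-fold higher in TM4. Other probe sets of Rgs4 had log2 ratios of 1.78 and -1.03. Pdgfrb, below the floor in TM4, was 2.26-fold higher in Sertoli cells as a bound. The part of fibroblast and pericyte markers in the contractile pattern was not tested.

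In primary Sertoli cells at 4 weeks, the contractile genes lay on both sides of wild type on the array labelled ERM knockout, and Myl9 was the member that differed most. Myl9 was 2.16-fold higher (4515 against 2087, log2 ratio 1.11). It is represented by a single probe set read well above the floor, so the alternatives of floor and probe sets could not change it. Under the alternative scalings it stayed at least 2-fold higher, from 1.06 to 1.13. It was the only one of 10 members at least 2-fold higher, against 0.681% of 15860 genes, and no member was lower by that much, against 3.18%. Des (0.44), Acta2 (0.35), Mylk (0.29), Actg2 (0.13) and Myh11 (0.08) had positive log2 ratios. Both tropomyosins and the actin-binding pair had negative ones, at -0.59 for Tpm2, -0.38 for Tpm1, -0.40 for Cnn1 and -0.50 as a bound for Tagln, which was below the floor in the knockout. The members' median was 0.10, beside -0.02 for all genes. The only yardstick of error was the spread of probe sets of 1 gene on this pair of arrays, a standard deviation of 0.20 log2 units over 2262 genes bright on both, which reflects probes and not animals. All 3 measured Tpm1 probe sets were below 0 (-0.41 to -0.08) and both measured Tpm2 probe sets were (-0.59 and -0.57), whereas all 3 of Mylk were above 0 (0.17 to 0.62).

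On the array labelled knockout at 10 weeks, 9 of 10 members were above the 4-week knockout array, where 46.8% of all genes were. Both tropomyosins were past 2-fold. Tpm1 was 2.36-fold higher (2934 against 1242, log2 ratio 1.24), with 1.36 and 0.48 on its other measured probe sets. Tpm2 was 2.28-fold higher (1266 against 556, log2 ratio 1.19), with 1.17 on a further probe set and a bound of 0.97 on another. These 2 of 10 compare with 4.19% of 15849 genes, and no member was lower by that much, where 3.51% of genes were. Both calls held under all 7 alternatives, from 1.03 to 1.27 for Tpm1 and from 1.11 to 1.22 for Tpm2. The alternatives of floor and cross-hybridisation could not change them. Acta2 (0.44), Mylk (0.37), Myh11 (0.31), Cnn1 (0.28), Actg2 (0.17) and Des (0.17) were positive, Tagln had a bound of 0.43, and Myl9 alone was negative (-0.14). The members' median was 0.34, beside -0.03 for all genes. Without the probe sets whose suffix marks cross-hybridisation, the count past 2-fold was 3, through the dim Acta2 probe set (1444105_at), which gave a bound of 1.19. Probe sets of 1 gene were also uneven elsewhere, at 0.31 and 1.19 for Myh11, 0.17 and -0.58 for Des, and 0.37, -0.07 and -0.19 for Mylk. The spread of probe sets within a gene was 0.25 log2 units for this pair. Age and preparation cannot be told apart here.

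Set against the wild-type array at 4 weeks, the 10-week knockout array had no member past 2-fold with 1 probe set per gene, where 1.62% of 15911 genes were past it upwards and 4.22% downwards. Myl9 came nearest, at 0.98, and was followed by Tpm1 (0.86), Acta2 (0.79), Mylk (0.65), Des (0.61), Tpm2 (0.60), Myh11 (0.39) and Actg2 (0.30). Cnn1 (-0.12) and Tagln (-0.07) were slightly below. The median over the 10 genes was 0.60, beside -0.03 for all genes, and 8 of 10 were above 0, where 46.6% of all genes were. The dimmer Myh11 probe set was past 2-fold here (1.49, 281 against 100.3), as was the dim Acta2 probe set as a bound (1.19). This comparison shares an array with each of those before it, so the 3 sets of ratios are not independent. The wild-type array was 4 weeks old, so genotype and age cannot be told apart.

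**Figure D2:**
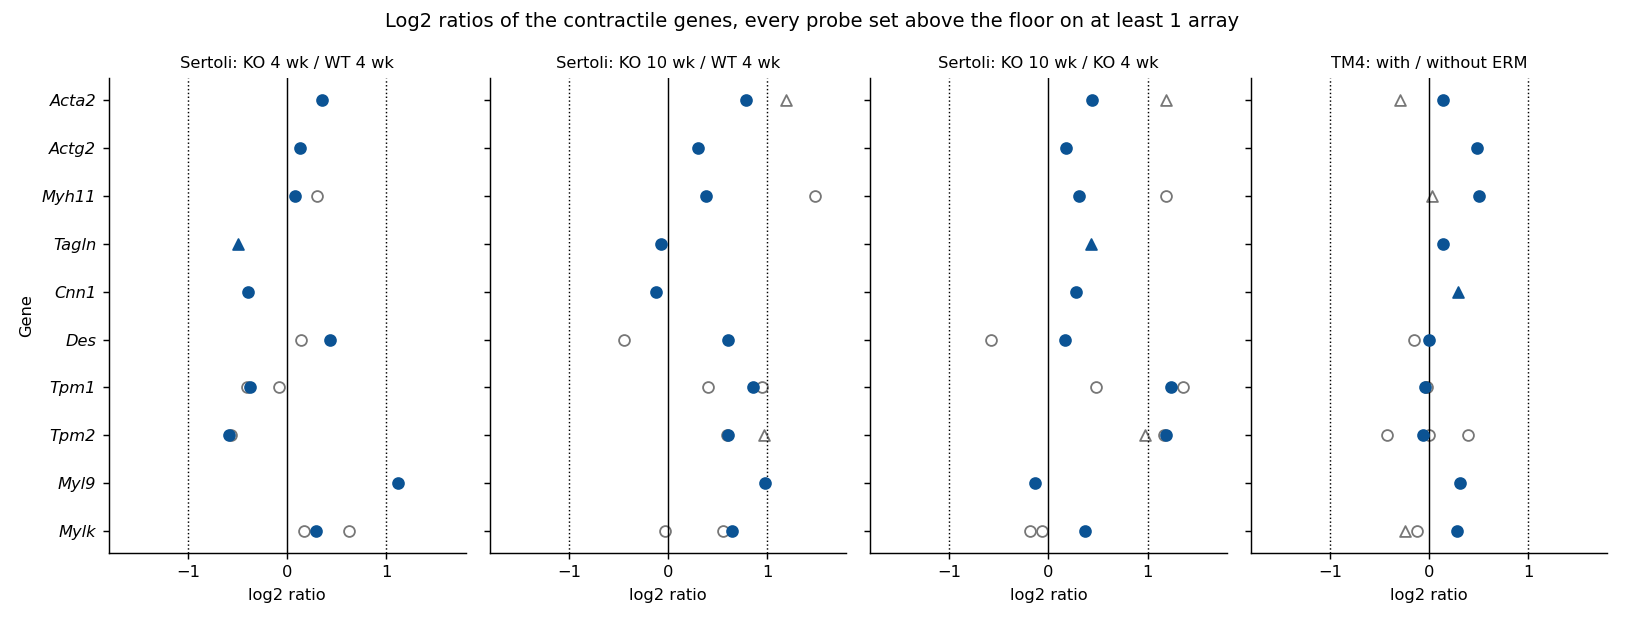
Log2 ratios (x axes) of the 10 contractile genes (rows) in 4 comparisons; filled blue symbols are the representing probe set, open symbols the other probe sets at or above the floor on at least 1 array of the pair, triangles are bounds, and dotted lines mark 2-fold. Myl9 lies at 1.11 in the 4-week comparison, and Tpm1 and Tpm2 lie at 1.24 and 1.19 between the knockout ages.

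**Figure D3:**
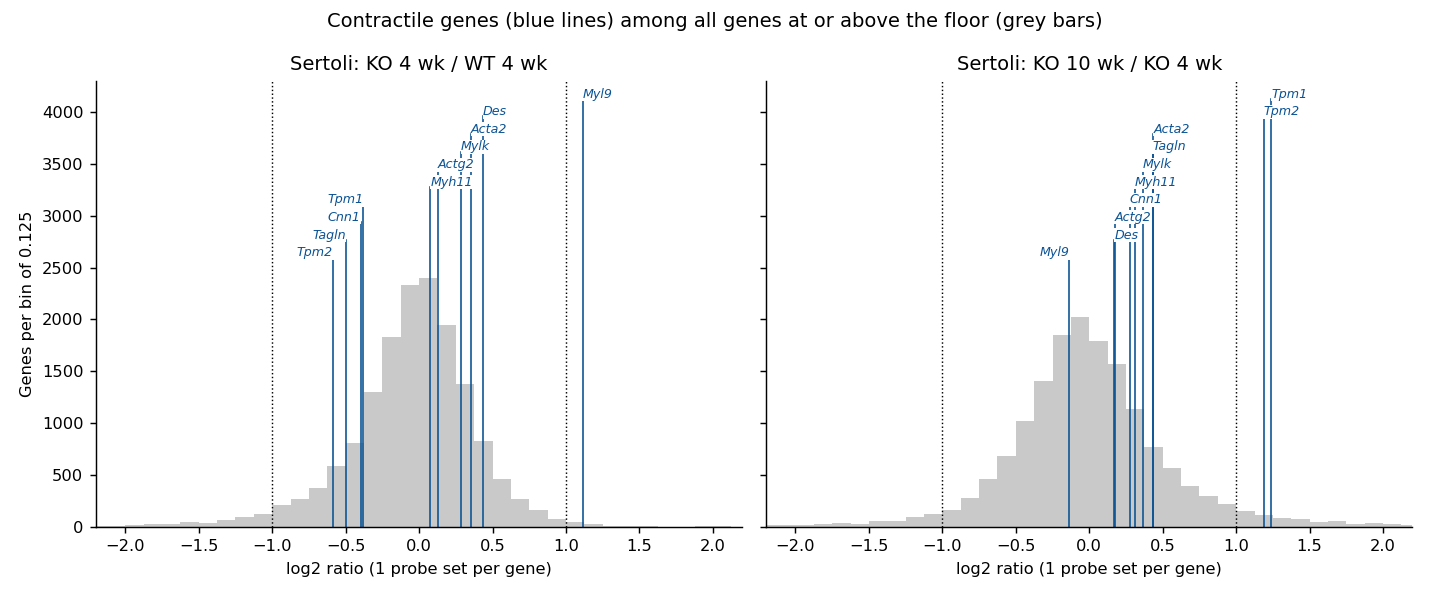
Number of genes per bin of log2 ratio (grey bars, 1 probe set per gene) with each contractile gene as a blue line, for the Sertoli knockout against wild type at 4 weeks (left) and the knockout at 10 against 4 weeks (right); dotted lines mark 2-fold and the heights of the blue lines carry no value. Only Myl9 is past 2-fold on the left, and only Tpm1 and Tpm2 on the right.

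On the TM4 array labelled as transfected with ERM, all 10 members were within 2-fold of the array without it, where 0.303% of 16158 genes were past that limit upwards and 0.421% downwards. Etv5 itself was also within 2-fold, at 473 with ERM and 405 without on 1428142_at, 211 and 187 on 1420998_at, and 475 and 314 on 1450082_s_at, so these values do not show how much ERM was added. Myh11 had the largest log2 ratio of the members, 0.50 (353 against 249), with 0.03 as a bound on its dimmer probe set. Actg2 followed at 0.48 (1026 against 734), and Myl9 was at 0.31, Cnn1 at 0.29 as a bound and Mylk at 0.28. The other Mylk probe sets were at -0.12 and, as a bound, -0.25. Acta2 and Tagln were at 0.14 each, and the dim Acta2 probe set gave a bound of -0.29. Tpm1 was at -0.04, Tpm2 at -0.06 and Des at 0.00. These 5 genes differed by less than the probe set spread of 0.15 log2 units, although the dimmer Tpm2 probe sets were at 0.40 and -0.42. Des, at 307 on both arrays, lies outside the bright genes behind that spread. The members' median was 0.21, beside 0.00 for all genes, and was 0.0573 when the probe sets of a gene were averaged.

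In whole testis at 4 weeks, where the myoid layer is part of the tissue, all 10 members were at or above the floor on both arrays. Of all probe sets naming 1 gene, 83.5% in wild type and 83.4% in knockout were. All 10 members were within 2-fold between the arrays, where 0.532% of 7515 genes were past that limit upwards in the knockout and 0.852% downwards. Actg2 read 3613 in knockout and 2492 in wild type, a log2 ratio of 0.54, on a probe set whose suffix marks a family of similar sequences. Myh11 read 502 and 358 (0.49), Mylk 899 and 643 (0.48) and Myl9 1591 and 1283 (0.31). Acta2 read 1795 and 1659 (0.11) and Tpm1 661 and 612 (0.11). On the lower side stood Cnn1, at 963 and 1227 (-0.35), Tpm2, at 455 and 570.2 (-0.33), and Des, at 510 and 564 (-0.15), while Tagln read 233 and 235 (-0.02). The median was 0.11, beside -0.01 for all genes, and the probe set spread was 0.25 log2 units over 295 genes. Only Actg2, Cnn1, Myh11, Myl9, Mylk and Tpm2 therefore exceeded that spread. A second Tpm2 probe set was below the floor on both arrays. On the same pair of arrays the fibroblast markers summed to 6341 in knockout and 4133 in wild type, with 7 of 8 at or above the floor (Lum was below). Of these, 2 of 7 measured were at least 2-fold higher, Dcn (1.03) and Pdgfra (1.18, with -0.05 on its other probe set). Pericyte markers summed to 1677 and 1831, with Pdgfrb below the floor on both arrays. Their part in these differences was not tested. Levels on this design cannot be set against those of the Sertoli and TM4 arrays, because the probes differ.

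**Figure D4:**
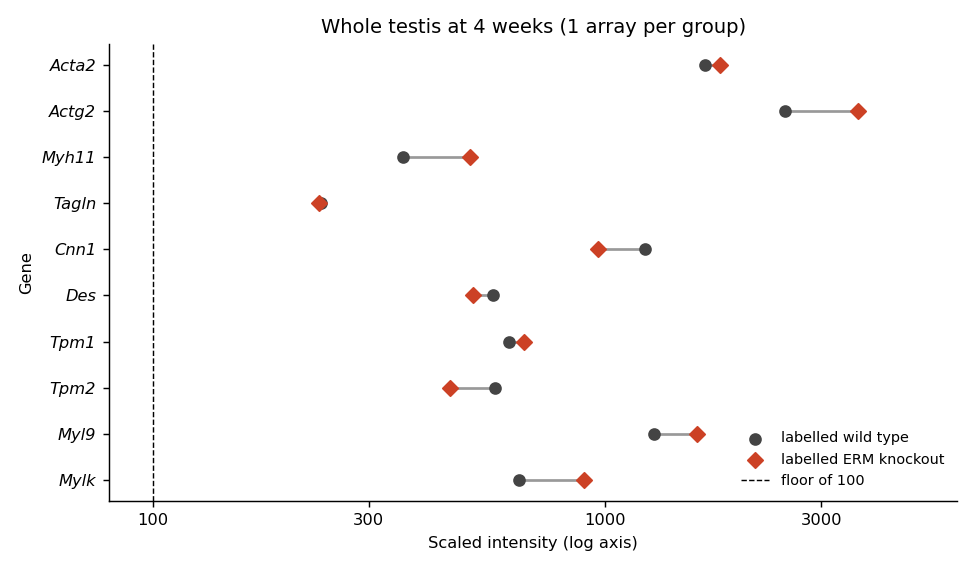
Scaled intensity (log axis) of the 10 contractile genes in whole testis at 4 weeks, with grey circles for the array labelled wild type, red diamonds for the array labelled ERM knockout and a dashed line at the floor of 100. The widest gap is that of Actg2 (2492 and 3613), and all pairs are within 2-fold.

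Other genes of the smooth muscle program were taken from a list of 35, made of regulators such as Srf and the myocardin family and of further contractile and focal adhesion proteins. In Sertoli cells at 4 weeks, 1 of 31 measured members was past 2-fold upwards in the knockout and 2 downwards, with a median of 0.01. Of all genes, 0.681% were past it upwards and 3.18% downwards. The higher one was Zyx, a focal adhesion protein (1.13, with 0.39 on its other probe set). The lower ones were Cald1, which encodes the actin-binding caldesmon (-2.24, with -2.24 and -1.73 on other probe sets), and Cav1, the main protein of caveolae (-2.31). Between the knockout ages 4 of 33 were at least 2-fold higher and none lower, beside 4.19% and 3.51% of all genes, with a median of 0.24. The 4 were Cald1 (2.18), Csrp1, a LIM protein of smooth muscle (1.45), Cav1 (1.16) and the actin crosslinker Flna (1.03). Cald1 thus read 3509 in wild type, 741 in knockout at 4 weeks and 3355 at 10 weeks, the same order of knockout arrays as the tropomyosins. Against wild type, the 10-week array had 3 of 33 at least 2-fold higher (Csrp1 at 1.14, Zyx at 1.06 and Pdlim3 at 1.00) and Cav1 lower (-1.15). Of all genes, 1.62% were higher and 4.22% lower by that much. In TM4, Pdlim3 was 1 of 32 past 2-fold, going from below the floor to 287 with ERM, beside 0.303% of all genes upwards. In testis none of 22 was past 2-fold, where 0.532% of all genes were upwards and 0.852% downwards.

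A list of 19 genes of the TGF-beta pathway and its targets, a pathway known to induce the contractile program, behaved unevenly. At 4 weeks Thbs1 (-1.94) and Ccn2 (-1.82), both matricellular proteins, were at least 2-fold lower in the knockout among 17 measured and none was higher, beside 3.18% and 0.681% of all genes. Between the knockout ages 5 of 17 were at least 2-fold higher and none lower, beside 4.19% and 3.51% of all genes. They were Thbs1 (3.05, from 190 to 1582), Ccn2 (2.21, from 856 to 3956), the inhibitory Smad7 (1.61, with 0.35 on another probe set), the ligand Tgfb2 (a bound of 1.58) and the coreceptor Tgfbr3 (1.02, with 0.42 on another). The medians of this list were -0.13 and 0.09. In TM4 none of 17 was past 2-fold, and in testis Ltbp1, which holds latent TGF-beta in the matrix, was (1.05). All genes past 2-fold on these pairs were 0.724% and 1.38%.

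Markers of other cells moved on the same Sertoli arrays. Macrophage markers summed to 12365 in wild type, 4988 in knockout at 4 weeks and 8872 at 10 weeks. In the 4-week comparison 4 of 10 measured were at least 2-fold lower, beside 3.18% of all genes. Itgam was below the floor on all 3 arrays and C1qa on both knockout arrays. Fibroblast markers summed to 11344, 6304 and 10589 in the same order, with Lum, Postn and Thy1 below the floor on all. At 4 weeks 2 of 5 were at least 2-fold lower (Col3a1 and Dcn, each with another probe set near 0), beside the same 3.18%. Pericyte and vascular smooth muscle markers, which would accompany vessels, summed to 1341, 1227 and 1291. None of 8 was past 2-fold at 4 weeks and none of 7 between the knockout ages, where 3.86% and 7.70% of all genes were. Rgs4 was below the floor on both knockout arrays. Endothelial markers summed to 2242, 2353 and 2713, with Pecam1, Tek and Vwf below the floor on all 3 arrays and none of 7 past 2-fold. Leydig cell markers, 4 on this design, summed to 2159, 3319 and 5541, and Cyp17a1 was at least 2-fold higher at each step (117, 364 and 1175). Sertoli cell markers summed to 41125, 49235 and 44134. The part of these cells, and of the 18S signal of the 4-week knockout array, in the values of Myl9, Tpm1 and Tpm2 was not tested.

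Over the 5 Sertoli and TM4 arrays, the genes with a profile nearest to that of Acta2 were Fmo5, Slc12a7, Myrip, Slc4a1 and Golm1, of 17256 searched. The root mean square difference of their centred log2 profiles from that of Acta2 was 0.04 for Fmo5, 0.05 for Slc12a7 and Myrip, 0.07 for Slc4a1 and 0.09 for Golm1. Golm1, for example, read 880 in wild-type Sertoli cells, 1072 and 1264 in the knockout at 4 and 10 weeks, and 1146 and 1255 in TM4 without and with ERM. No other contractile gene was among these 5. With so few members among 17256 genes, this says nothing about whether the contractile genes vary together.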

How the data were processed

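Deposited values of 7 single-colour Affymetrix arrays were used, 1 per group as labelled. The authors deposited a linear intensity for each probe set, never below 1, and their software and scaling are not given in the sources read here. Arrays were scaled to a trimmed mean of 500 (controls and the lowest and highest 2% of probe sets left out), and values below 100 (0.2 of that mean) were set to 100 before log2 ratios were taken. No ratio was given where both arrays were below 100, and a ratio with 1 below is a bound. Only probe sets naming 1 gene were used (10833 of 12488 and 34945 of 45101). Those naming several genes (396 and 932) or none (1193 and 9160) were left out. Gene identifiers of 10817 and 34741 matched a GRCm38.p6 gene table, with no symbol changed. A gene is represented by the probe set whose scaled intensity is highest on average. Genes were counted at a 2-fold ratio, with no test across samples. The bright genes behind the probe set spread read at least 500 on both arrays. All 10 members were named, along with genes of the fixed lists past 2-fold (at most 4 per list and comparison, except where 5 were counted), Etv5 and the 5 genes nearest to Acta2 in profile. Sox9, Wt1 and Espn were named beside the check of the Sertoli label, and Cyp17a1 and markers below the floor after their values were seen. Members and lists were chosen with earlier results of these data known. The steps recovered known changes in simulated data. Recovery of ratios near 2-fold, or of genes near the floor, was not tested. The 7 alternatives changed the scaling (values as deposited, centring, quantiles), the floor (0.1 or 0.4 of the trimmed mean), and the choice of probe sets (mean of all, or none prone to cross-hybridisation). Python 3.11.15, numpy 2.4.6, pandas 2.3.3 and matplotlib 3.10.9 were used.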

Additional observations from a re-analysis of the deposited data

Results flagged for a closer look

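The tropomyosins lay on opposite sides of the wild-type Sertoli array at the 2 knockout ages. Tpm1 had a log2 ratio to wild type of -0.38 at 4 weeks and 0.86 at 10 weeks, and Tpm2 of -0.59 and 0.60. Each age is 1 array, both are set against the same wild-type array at 4 weeks, and the difference between the ages was not tested. Outside the probe sets compared above, the 18S ribosomal RNA 5' control read 4551 on the Sertoli array labelled knockout at 4 weeks, above the 349 of the wild-type array.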

How the results depend on the processing

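Each comparison had 2 summary values, the median and the number of the 10 contractile genes past 2-fold, and 7 alternatives to the settings. A median was taken to have moved when it shifted by more than the probe set spread, and a count when it changed by over 1.5 times. Of 84 such summary values under the alternatives, 79 stayed within these limits. The TM4 median with against without ERM was 0.0573 with the mean over probe sets. The Sertoli knockout at 10 weeks against wild type had 1 gene past 2-fold in place of 0 with centred ratios, through Myl9 at 1.01, and 1 without probe sets prone to cross-hybridisation, through the dim Acta2 probe set. Between wild-type Sertoli cells and TM4, whose alternatives were chosen after seeing the data, the values as deposited gave a median of 0.21 and 7 genes past 2-fold, in keeping with the shift of all genes on that scale. Of 408 ratios of single genes under the alternatives, 379 moved by less than the probe set spread and 29 by more, and none past 2-fold changed sign. Many could not move, since a bright gene with 1 probe set is unchanged by the alternatives of floor and probe sets. No paired analysis was possible because each group held 1 array, and leaving out a replicate was not possible for the same reason. Signals of Tagln, Cnn1 and Des near the floor of 100 limit what their ratios can show in Sertoli cells.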

Other observations

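Genes of the cytoplasmic actin and nonmuscle myosin machinery, which every cell uses, were read from a list of 10. Actb was 2.42-fold lower in the Sertoli knockout at 4 weeks on its highest probe set (13869 against 33541), while its other measured probe set had a log2 ratio of -0.37. Myh9, a nonmuscle myosin heavy chain, was 2.40-fold higher in the knockout at 10 than at 4 weeks (3063 against 1278), and its 4 other probe sets had log2 ratios from 0.36 to 1.51. In TM4 none of the 10, and in testis none of 9 measured, was past 2-fold, where 0.724% and 1.38% of all genes were. Sarcomeric genes of striated muscle, a list of 22, had 9 members below the floor in wild-type Sertoli cells, among them Myh1, Myh4 and Tnnt3. At 4 weeks none of 14 measured was past 2-fold, where 3.86% of all genes were. In testis Tnni3, a cardiac troponin subunit, was 2.69-fold higher in the knockout (573 against 213). It was the 1 member of 17 past 2-fold, beside 1.38% of all genes.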
